A study of Macaca fascicularis with 2 samples.

Results

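KIT and its ligand KITLG are 2 of the 18446 genes in the count table of a single-cell RNA sequencing study of whole fetal ovaries of Macaca fascicularis. They were taken as the KIT and KITLG entries of the table, and they are described here over all 20967 cells, including the 4675 cells with more than 3000 detected genes. KIT had 4717 unique molecular identifiers (UMIs) in 2124 cells, and KITLG had 15979 UMIs in 4994 cells. The ovaries came from an untreated female fetus of embryonic day 84 (E84) and one of day 116 (E116), and each library pooled both ovaries of its fetus after enzymatic dissociation of the whole tissue. The sources give no strain, no sort and no enrichment of a cell type.

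KITLG, also called stem cell factor, is a growth factor made as a membrane protein that proteases can release from the cell surface. KIT, its receptor, is a class III receptor tyrosine kinase. Ligand binding pairs the receptors and starts signaling through PI3K and AKT, through RAS and the MAP kinases, and through Src family kinases. In the gonad the ligand is known as a product of somatic cells, and the receptor is known in germ cells, where the pair serves migration and survival of primordial germ cells and later the growth of oocytes. The counts come from the 3′ ends of transcripts, so membrane-bound and soluble forms of KITLG cannot be told apart, and levels of KIT and KITLG were not compared with each other.

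The table held 148824177 UMIs, with a median of 3756 UMIs per cell and a range from 499 to 120898. Its barcodes ended in 1 (10621 cells) or 2 (10346 cells), no source ties an ending to a stage, and 27 barcodes occurred with both endings. All cells were therefore treated as 1 pooled sample, with the endings as unlabelled batches, and no result by stage and no test was possible. Levels are the UMIs of a gene per 1000000 UMIs of a group (CPM), followed in parentheses by an exact 95% Poisson interval. All intervals cover counting error only and not the difference between fetuses. Clustering gave 25 clusters, of which 11 were germ cell-like, and most clusters were made almost wholly of 1 barcode ending, so a cluster may be a library rather than a cell type. Clusters carry the name of a cell type only where marker genes gave it, and otherwise of a leading gene. KIT, KITLG and the genes of the signaling lists were not used for clustering, but KITLG came out among the 10 leading genes of the SOST and EGR3 clusters described further on.

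KIT was highest in germ cells, and over the named steps it was high, then low in meiotic-like cells, then high again. It stood at 117 CPM (106–129) in the 253 mitotic-like cells, at 89.2 CPM (84.2–94.3) in the 1485 retinoic acid (RA)-responsive-like cells, at 21.9 CPM (18.9–25.3) in the 1314 meiotic-like cells and at 120.1 CPM (114–127) in the 655 oogenesis-like cells. The intervals of the mitotic-like and oogenesis-like cells overlapped, while over all cells RA-responsive-like cells lay between them and the meiotic-like cells without overlap on either side. KIT was 4.06 times higher in RA-responsive-like than in meiotic-like cells (3.48–4.77), a log2 ratio of 2.02 (1.80–2.25). The same ratio was 2.39 among cells with barcodes ending in 1 and 1.60 among those ending in 2.

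The oogenesis-like level of KIT was 5.48 times that of meiotic-like cells (4.69–6.42), a log2 ratio of 2.45 (2.23–2.68). Among barcodes ending in 2 the ratio was 2.13, from 119 CPM in 634 cells against 27.3 CPM in 237 cells. Among barcodes ending in 1 only 21 oogenesis-like cells were present, at 168 CPM (119–232). Of the mitotic-like cells, 250 had barcodes ending in 1, at 116 CPM, and 3 had the other ending. RA-responsive-like cells were at 92.5 CPM and 82.7 CPM by ending, from 1193 and 292 cells.

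**Figure D1:**
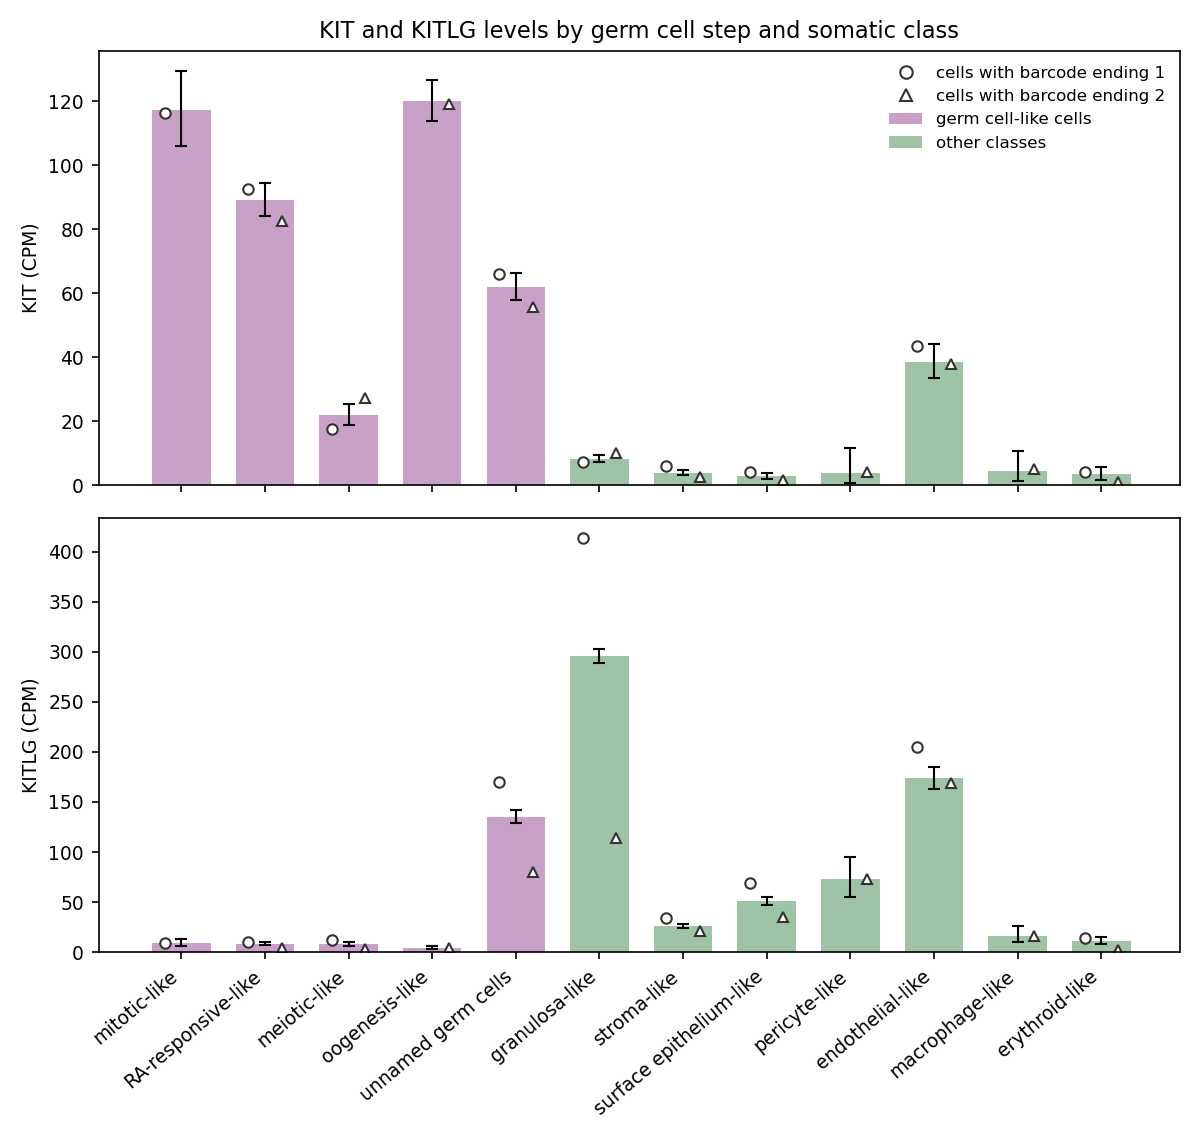
Levels of KIT (upper panel) and KITLG (lower panel) in CPM, for the 4 germ cell steps, the germ cells in no named step and the 7 other classes. Bars are pooled levels with exact 95% Poisson intervals, and open symbols are the levels within a barcode ending where it has at least 50 cells. KIT reaches 120.1 CPM in oogenesis-like cells and only 21.9 CPM in meiotic-like cells, and KITLG reaches 296 CPM in granulosa-like cells.

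The steps were named from marker genes, whose levels describe the naming and are no finding. TFAP2C, a primordial germ cell factor, was at 116 CPM in mitotic-like cells. STRA8, a gatekeeper of meiotic entry, reached 44.4 CPM in the RA-responsive-like step, against 2.50 CPM in the meiotic-like one. SYCP1, a protein of the synaptonemal complex, was at 932 CPM in meiotic-like cells, where KIT was lowest. FIGLA, an oocyte transcription factor, was at 542 CPM and the oocyte growth factor GDF9 at 371 CPM in oogenesis-like cells. BMP15, the partner of GDF9, had only 9 UMIs there, 0.813 CPM.

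Within steps, KIT was lowest in both meiotic-like sub-clusters. Of the meiotic-like sub-clusters, the one led by SYCE3 was at 15.7 CPM (11.5–20.9) in 952 cells and the one led by RAD51AP2 at 25.4 CPM (21.3–30.0) in 362 cells. Both were below every sub-cluster of the other named steps. The oogenesis-like sub-clusters overlapped. The one led by ZP4 was at 125 CPM (101–152) in 341 cells and the one led by PADI6 at 119.8 CPM (113–127) in 314 cells, a ratio of 0.961 (0.780–1.195). RA-responsive-like cells spread more widely. Their sub-cluster led by the proliferation gene MKI67 was at 101 CPM (94.3–109), the one led by RFX6 at 80.3 CPM (71.9–89.5) and the one led by REC8 at 56.9 CPM (46.4–69.0). KIT was 1.78 times higher in the MKI67 than in the REC8 sub-cluster (1.45–2.21), and 1.84 times among barcodes ending in 1, which held most cells of both. Among barcodes ending in 2, with 35 and 53 cells, the ratio was 1.28 (0.643–2.81). Median depth moved with this difference, from 12456 UMIs in the MKI67 to 2063 UMIs in the REC8 sub-cluster, and its part in the result was not tested.

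The oogenesis-like level depended on which cells were kept by their mitochondrial share. KIT was at 126 CPM (119–133) in the 384 oogenesis-like cells above 10% mitochondrial UMIs and at 64.8 CPM (50.3–82.2) in the 271 others. The gap lay in the PADI6 sub-cluster, with 126 CPM (119–133) in 217 cells above the limit and 53.8 CPM (39.5–71.5) in 97 cells at or below it. Those cells had median depths of 37755 and 4633 UMIs. In the ZP4 sub-cluster the levels were 126 CPM (99.2–158) and 119.8 CPM (74.2–183). Without the cells above 10%, the log2 ratio of oogenesis-like over meiotic-like cells was 1.66. In each of the other 3 steps the intervals on both sides of the limit overlapped, with 22.5 and 20.5 CPM in meiotic-like cells.

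KIT was counted in most cells only where cells were deep. In step order, a KIT UMI was found in 74.7%, 41.1%, 10.5% and 41.4% of cells, whose depths had medians of 11839, 5556, 2723 and 3220 UMIs. In erythroid-like cells, the class taken here as a low reference, 1.74% of cells had one at a median depth of 4066 UMIs. With each cell thinned to 1000 UMIs, the shares were 11.1% (7.48–15.6) of 253 mitotic-like, 7.53% (6.21–9.01) of 1435 RA-responsive-like, 2.10% (1.36–3.08) of 1192 meiotic-like and 9.41% (7.02–12.3) of 510 oogenesis-like cells. The thinned share of erythroid-like cells was 0.613% (0.167–1.56) of 653. Thinning left out 0, 50, 122, 145 and 94 shallower cells of these groups. The meiotic-like share stayed apart from the other 3 steps after thinning, while its interval overlapped that of erythroid-like cells.

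A small set of deep oocytes carried a large part of the receptor's counts. In the PADI6 sub-cluster 105 of 314 cells had 5 or more KIT UMIs, and the highest cell of the table, with 22, lay in it. This sub-cluster held 26.2% of all KIT UMIs and 6.92% of all UMIs. By comparison, 11 of 253 mitotic-like cells and 2 of 1314 meiotic-like cells had 5 or more. Median depths were 19118 UMIs in the PADI6 sub-cluster, 11839 in mitotic-like and 2723 in meiotic-like cells. In CPM, the KIT intervals of the PADI6 and mitotic-like cells overlapped, and the part of depth in these counts was not tested. Cells above 3000 genes held 80.9% of all KIT UMIs and 67.7% of all KITLG UMIs, and their share of all UMIs is not given here. Without them KIT was at 129, 80.5, 22.6 and 116 CPM in step order.

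**Figure D2:**
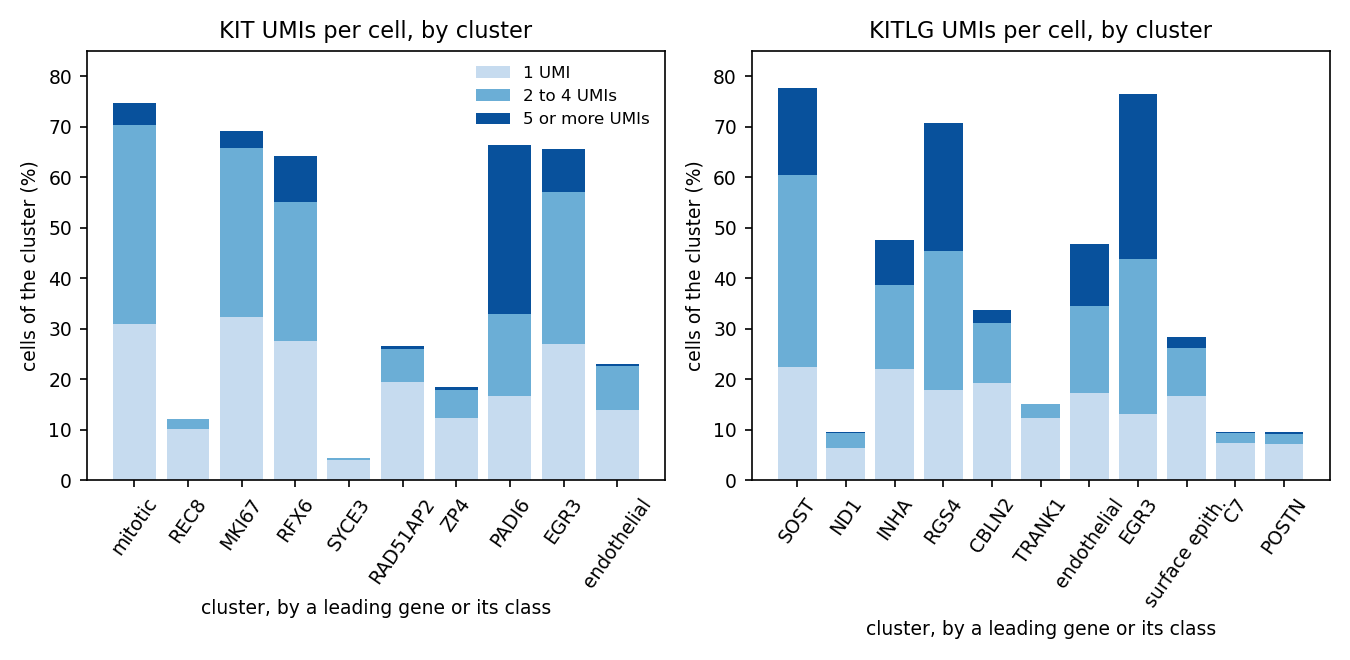
Percent of the cells of a cluster with 1, 2 to 4, or 5 or more UMIs of KIT (left) and KITLG (right), for the clusters where the genes were counted most and some others for comparison, each labelled by a leading gene or its class. Cells with 5 or more KIT UMIs make up 33.4% of the PADI6 oogenesis-like sub-cluster, and cells with 5 or more KITLG UMIs 17.2% of the SOST granulosa-like cluster.

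Within bins of depth the low meiotic-like level of KIT remained. Meiotic-like cells were at 20.4, 21.0, 17.6 and 29.5 CPM in cells of 499 to 1999, 2000 to 4999, 5000 to 19999 and 20000 or more UMIs. RA-responsive-like cells were at 42.0, 83.1, 100.1 and 78.9 CPM in the same bins. In the shallowest bin the intervals of meiotic-like (10.8–34.8) and RA-responsive-like cells (25.7–64.9) overlapped. Oogenesis-like cells were at 116, 130.2, 87.9 and 125 CPM. The order of mitotic-like and oogenesis-like cells changed with depth, with 124 CPM (111–139) against 87.9 CPM (73.4–104.5) at 5000 to 19999 UMIs, and 97.7 CPM (79.1–119) against 125 CPM (118–133) in the deepest cells. RA-responsive-like and oogenesis-like cells also changed places at 5000 to 19999 UMIs, with 100.1 CPM (92.9–108) against 87.9 CPM and overlapping intervals. At or below 10% mitochondrial UMIs RA-responsive-like cells were higher, at 85.7 CPM (77.8–94.3) against 64.8 CPM.

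**Figure D3:**
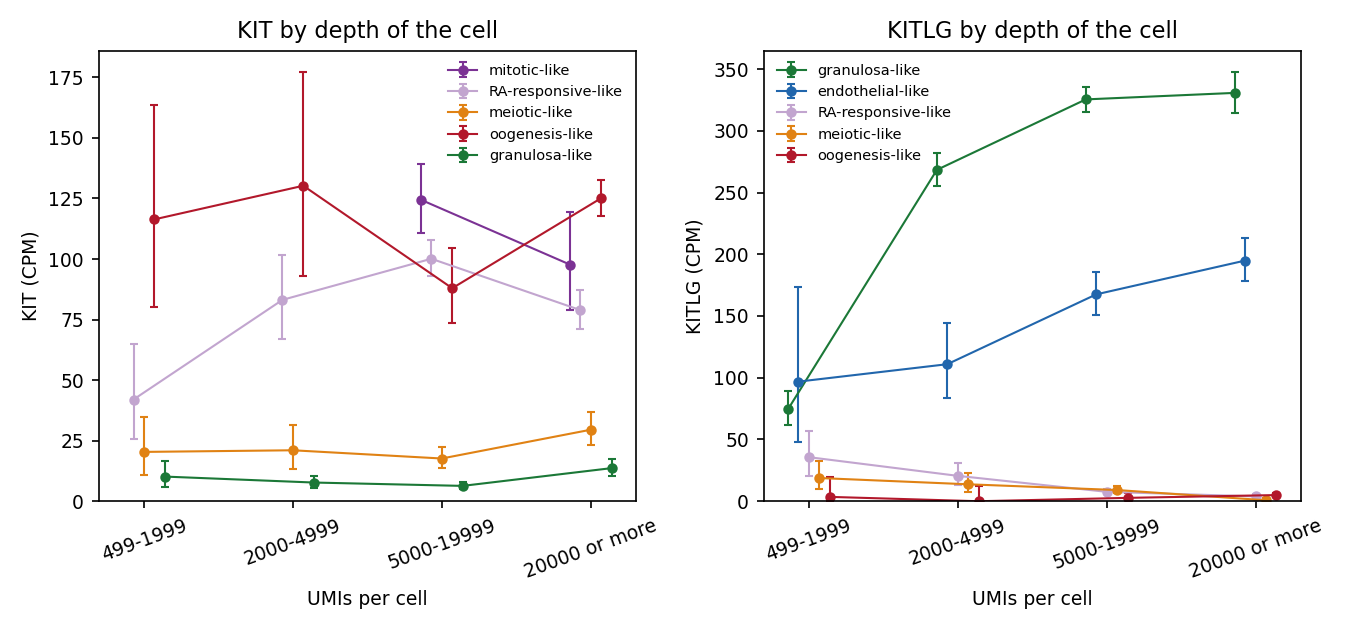
KIT (left) and KITLG (right) in CPM against the number of UMIs per cell, in 4 bins, with exact 95% Poisson intervals and bins under 20 cells left out. Meiotic-like cells lie between 17.6 and 29.5 CPM of KIT in every bin, and KITLG in granulosa-like cells lies between 74.4 and 331 CPM.

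Among somatic cells, KIT stood out in endothelial cells. The 548 endothelial-like cells were at 38.6 CPM (33.6–44.3), with 43.5 CPM in barcodes ending in 1 (148 cells) and 37.9 CPM in those ending in 2 (400 cells). This was 10.1 times the stroma-like level (7.91–13.02) and 11.3 times the erythroid-like level (6.45–21.5). After thinning, 3.44% of 494 endothelial-like cells (2.02–5.45) had a KIT UMI, against 0.613% of erythroid-like cells. Unthinned, the share was 23.0% at a median depth of 5726 UMIs. The 9 germ cell markers summed to 53.0 CPM in endothelial-like cells, below the 77.1 CPM of stroma-like cells, where KIT was at 3.82 CPM. The 4 mast cell markers in the table summed to 1.11 CPM, and 1 of them was at 0. The 6 blood progenitor markers were CD34, SPINK2, MECOM, HLF, MPO and PROM1. They summed to 613 CPM, and 2 of them were at 20 CPM or more. Whether mast cells or blood progenitors were among these cells, and their part in the KIT level, was not tested.

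The other somatic classes had little KIT. Granulosa-like cells were at 8.37 CPM (7.26–9.61), 7.29 and 10.1 CPM by barcode ending, and their germ cell markers summed to 146 CPM. Macrophage-like, pericyte-like, stroma-like, erythroid-like and surface epithelium-like cells lay between 2.85 and 4.59 CPM, and neighbours in this order had overlapping intervals. Levels at or below the 3.43 CPM (1.83–5.87) of erythroid-like cells were read as background from free RNA. However, the 9 erythroid markers took 468807 CPM there and so lowered the level of every other gene. Whether erythroid-like cells made some of this KIT themselves was not tested. Germ cell-like cells as a whole were at 79.2 CPM (76.7–81.7), a log2 ratio of 3.24 (3.04–3.45) over granulosa-like cells, and 3.34 and 3.07 by barcode ending. Of the KIT UMIs, 84.9% lay in germ cell-like cells, which held 34.0% of all UMIs.

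Over all cells KITLG was highest in granulosa-like cells, and it was low in germ cells of the named steps. Among barcodes ending in 2 endothelial-like cells were higher, at 169 CPM (157–181) against 114 CPM (107–121) in granulosa-like cells. That order turned when an unnamed cluster led by RGS4, described further on, was counted as granulosa-like and the unnamed CBLN2 cluster was not. The 4486 granulosa-like cells were at 296 CPM (289–303), against 25.9 CPM (24.0–28.0) in 4569 stroma-like cells, a log2 ratio of 3.51 (3.40–3.63). Within barcode endings this ratio was 3.58 and 2.39. Against all germ cell-like cells, at 42.7 CPM (40.9–44.5), the log2 ratio was 2.79 (2.72–2.86), and 2.70 and 2.44 by ending. Against the 3707 germ cells in a named step, at 7.19 CPM (6.34–8.11), the log2 ratio was 5.36 (5.19–5.55). Of the 2160 KITLG UMIs of germ cell-like cells, 1814 lay in 1 unnamed sub-cluster, described further on. FOXL2, the granulosa transcription factor, was at 4.48 CPM in granulosa-like cells and AMHR2, the receptor of anti-Müllerian hormone, at 159 CPM. LHX2, a gonadal transcription factor outside the marker list, was at 193 CPM there, but higher in surface epithelium-like cells, at 444 CPM (433–455).

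Granulosa-like cells were not uniform in KITLG. The cluster led by SOST was at 418 CPM (408–429) in 2150 cells, the cluster led by INHA at 136 CPM (127–146) in 609 cells and the cluster led by the mitochondrial gene ND1 at 74.1 CPM (65.4–83.6) in 1727 cells. KITLG was 3.06 times higher in the SOST than in the INHA cluster (2.85–3.30), and 5.64 times higher than in the ND1 cluster (4.98–6.41). Among barcodes ending in 1 the SOST over ND1 ratio was 0.978 (0.515–2.14), with 15 ND1 cells, and among those ending in 2 it was 4.82 (3.68–6.27), with 35 SOST cells. SOST cells had barcodes ending in 1 in 2115 of 2150 cases, while ND1 cells and most INHA cells had the other ending. The levels of 413 CPM and 114 CPM by ending in granulosa-like cells as a whole therefore cannot be told apart from the difference between clusters. The SOST over INHA ratio was 1.91 among barcodes ending in 1 (1.56–2.37), with 109 INHA cells, and 2.66 among those ending in 2 (2.07–3.38), with 35 SOST cells. The ND1 cluster had a median of 49.2% mitochondrial UMIs, against 10.5% in the SOST cluster. Such a share lowers the CPM of every other gene, and its part in the SOST over ND1 ratio was not tested. Without the ND1 cluster granulosa-like cells were at 334 CPM (326–342). Within the SOST cluster KITLG was at 354.5, 376, 420.5 and 475 CPM in the 4 bins of depth, and 77.6% of its cells had a KITLG UMI.

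**Figure D4:**
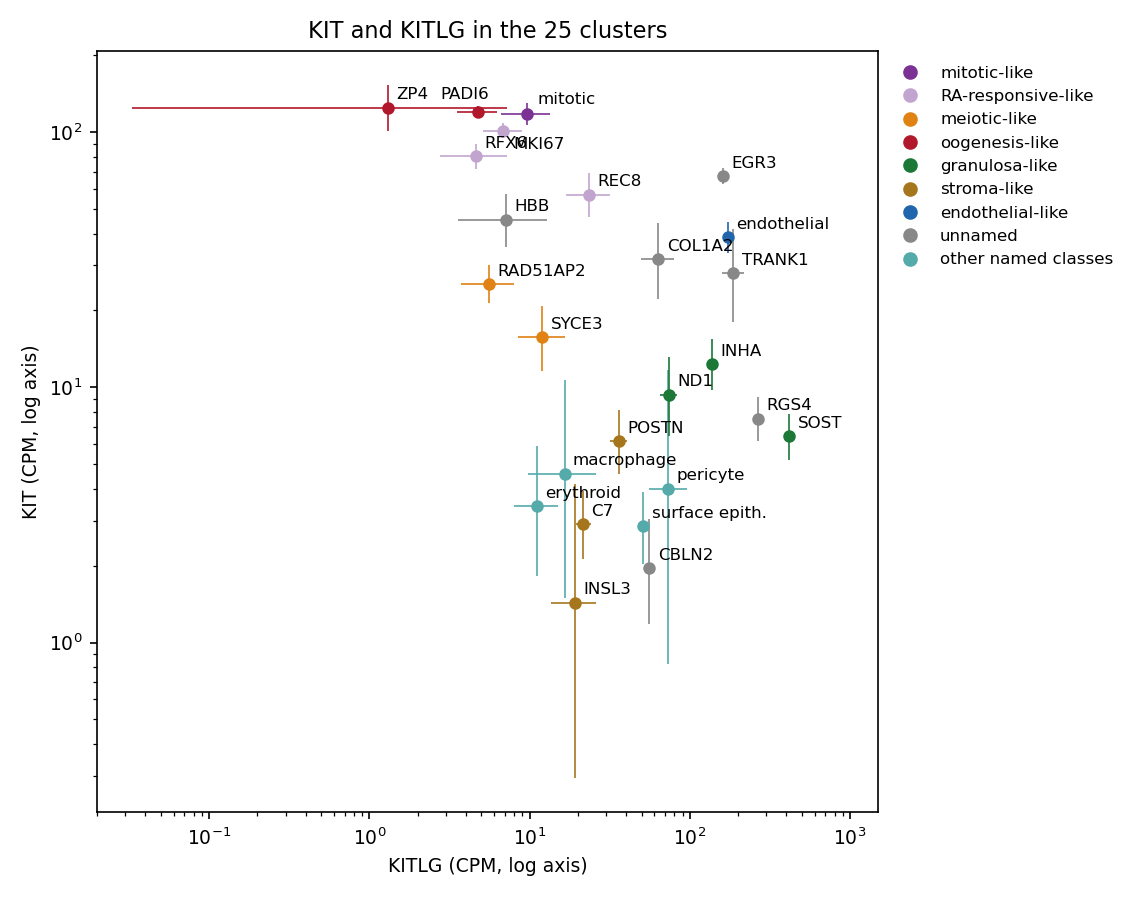
KIT against KITLG in CPM, both on log axes, for the 25 clusters, each labelled by a leading gene or its class and coloured by its name, with exact 95% Poisson intervals. The named germ cell clusters other than the meiotic-like ones lie at the upper left, both meiotic-like ones lower at 15.7 and 25.4 CPM of KIT, granulosa-like clusters at the lower right with SOST at 418 CPM of KITLG, and the EGR3, endothelial, COL1A2 and TRANK1 clusters have both genes above 25 CPM.

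Some clusters with much KITLG had no name. A cluster of 994 cells led by RGS4, MNDA and WIF1, all but 1 with barcodes ending in 2, was at 266 CPM (257–275). AMHR2, FST, IRX3 and IRX5 passed there as granulosa markers, but none of them led and markers of another class passed too. It held the cell with the most KITLG, 56 UMIs, and 252 of its cells had 5 or more. Its level was 1.95 times that of the INHA cluster (1.80–2.10) and 4.75 times that of the unnamed CBLN2 cluster (4.34–5.21), which was at 55.9 CPM (51.3–60.9). A shallow cluster of 869 cells led by TRANK1, CRYM and IRX3 was at 187 CPM (159–218), with a median of 716 UMIs per cell. Its granulosa markers summed to 479 CPM and its germ cell markers to 420 CPM, and KIT was at 28.0 CPM (17.96–41.7).

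Endothelial-like cells came after granulosa-like cells for KITLG over all cells and before them among barcodes ending in 2. Without the ND1 cluster the ending 2 level of granulosa-like cells was 138 CPM (129–148), still lower. With the RGS4 cluster added to granulosa-like cells it was 203 CPM (197–209), above endothelial-like cells. The unnamed CBLN2 cluster was not added. Its 803 cells, all with barcodes ending in 2, had AMHR2 at 300 CPM (289–311) and KITLG at 55.9 CPM. The order within ending 2 thus depends on which unnamed clusters are counted as granulosa-like. Endothelial-like cells stood at 174 CPM (163–185), with 205 and 169 CPM by barcode ending, 6.70 times the stroma-like level (6.05–7.42). The 10 granulosa markers summed to 92.4 CPM in them and to 160 CPM in stroma-like cells, and the part of granulosa RNA or doublets in the endothelial-like level was not tested. After thinning, 11.9% of 494 endothelial-like cells (9.22–15.1) had a KITLG UMI, against 19.9% of 4227 granulosa-like cells (18.7–21.1) and 0.613% of 653 erythroid-like cells (0.167–1.56). Before thinning these classes had a KITLG UMI in 46.7%, 47.3% and 4.15% of cells, with medians of 5726, 3698 and 4066 UMIs per cell.

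Pericyte-like cells were at 73.4 CPM (55.3–95.5) and surface epithelium-like cells at 51.2 CPM (47.5–55.1). Stroma-like cells followed at 25.9 CPM, macrophage-like cells at 16.5 CPM (9.79–26.1) and erythroid-like cells at 11.1 CPM (7.99–15.0), each overlapping its neighbour. Within the stroma, the cluster led by POSTN was at 35.9 CPM and the one led by C7 at 21.6 CPM, a ratio of 1.66 (1.41–1.95). These clusters lie almost wholly in opposite barcode endings, and only 55 POSTN cells and 9 C7 cells had the other one, so the ratio and the batch cannot be told apart.

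Over all cells and without thinning, KITLG pooled over each named germ cell step was no higher than in erythroid-like cells. In step order it was at 9.60 CPM (6.61–13.5), 8.32 CPM (6.87–10.0), 7.87 CPM (6.09–10.0) and 4.52 CPM (3.35–5.95), beside the 11.1 CPM of erythroid-like cells. The log2 ratio of mitotic-like over RA-responsive-like cells was 0.21 (−0.40 to 0.78), so no difference was detectable at this depth. Within the RA-responsive-like step the shallow REC8 sub-cluster was at 23.4 CPM (16.9–31.7), above erythroid-like cells without overlap, while the MKI67 sub-cluster was at 6.81 CPM (5.10–8.91). The erythroid markers lower the level of every other gene in erythroid-like cells, as stated for KIT. Their part in this gap was not tested. Without cells above 3000 genes the RA-responsive-like level was 18.7 CPM, after thinning it was 18.1 CPM, and at cluster resolution 1.0 the mitotic-like level was 61.3 CPM, so these low levels depend on the cells kept and on the clustering. Thinned shares of the steps lay between 0.392% and 1.74%. The highest, 1.74% (1.13–2.56) in RA-responsive-like cells, was above the 0.613% (0.167–1.56) of erythroid-like cells, with overlapping intervals. Among barcodes ending in 2, the 3 steps with more than 200 cells were at 2.94 to 4.66 CPM and erythroid-like cells at 2.22 CPM.

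The exception among germ cells was an unnamed sub-cluster of 447 cells led by PTGDS, EGR3, EGR1 and SOST. KITLG, which was among its 10 leading genes, was at 160.2 CPM (153–168), with 191 and 106 CPM by barcode ending. KIT was at 67.3 CPM (62.6–72.2) in the same cells. A UMI of both genes was found in 243 of them, 54.4% (49.6–59.0), and they made up 38.4% of the 632 cells of the table with both. Thinned to 1000 UMIs, 4 of the 447 cells had both, 0.895% (0.244–2.27). The cells were deep, with a median of 21611 UMIs, and 44.1% of them were among the 8% with the highest Scrublet doublet scores, against 2.37% of germ cells in a named step. Their granulosa markers summed to 322 CPM and their germ cell markers to 846 CPM, against 72.8 and 1831 CPM in germ cells of a named step. The part of doublets in the shared counts was not tested.

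Other unnamed germ cells had lower levels. The sub-cluster led by HBB and COL1A2 had 1304 shallow cells, with KIT at 31.8 CPM (22.3–44.0) and KITLG at 63.6 CPM (49.8–80.1). Stroma markers summed to 2712 CPM there. A sub-cluster of 843 cells led by HBB and S100A6 had KIT at 45.4 CPM (35.4–57.3) and KITLG at 7.13 CPM (3.56–12.8).

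Cells with both genes were otherwise few. Of the endothelial-like cells, 86 of 548 had both, 15.7% (12.7–19.0), and 16.1% of the whole class were among the highest doublet scores. After thinning, 3 of 494 had both. Granulosa-like cells had both in 98 of 4486 cases and germ cells in a named step in 112 of 3707. Over the 25 clusters, Pearson's r of KIT and KITLG was −0.38 on log2(CPM + 10), a description over clusters that share 2 libraries and differ in depth.

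The genes whose pattern over the 25 clusters was most like that of KIT were KIAA1324L (r = 0.918), TRIM36 (0.901), BYSL (0.894), ALPL (0.892) and NPY (0.890), out of 10432 genes with at least 20 CPM in a cluster. ALPL is an alkaline phosphatase, NPY a neuropeptide, TRIM36 a ubiquitin ligase and BYSL a factor of ribosome assembly. Each was highest in the PADI6 oogenesis-like sub-cluster, NPY at 127.5 CPM. For KITLG they were PCDH17 (r = 0.911), SEMA3F (0.899), PLSCR4 (0.896), FHOD1 (0.885) and CD200 (0.879). PCDH17, a protocadherin, was highest in endothelial-like cells at 486 CPM. SEMA3F, a secreted semaphorin, and PLSCR4, a phospholipid scramblase, were highest in the SOST cluster, PLSCR4 at 270.1 CPM, and the membrane glycoprotein CD200 was highest in the RGS4 cluster at 323 CPM.

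The other genes of KIT signaling were followed with a list of 64 genes, 62 of which are in the table. A gene was compared where it averaged at least 10 CPM over both groups, and counted as higher or lower at 2 times or more with 10 CPM added. These are sizes and not tests. From mitotic-like to RA-responsive-like cells, 2 of 41 compared genes were higher and 3 lower, beside 10.3% higher and 5.75% lower of all 8020 genes compared. The median log2 ratio of the list was 0.11, and that of all genes 0.23. KIT differed by −0.36 on this scale.

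Among the genes that differed between these steps, HRAS, a small GTPase, went from 34.9 to 87.8 CPM. ETV5, a transcription factor downstream of MAP kinases, went from 37.0 to 5.26 CPM and the kinase MAP2K2 from 172 to 70.8 CPM. None of the 16 compared PI3K, AKT and mTOR genes passed 2 times. Of the mitotic-like cells 250 had barcodes ending in 1 and 3 the other ending, against 1193 and 292 RA-responsive-like cells. These ratios are pooled over both endings, so they and the batch cannot be fully told apart.

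From RA-responsive-like to meiotic-like cells, where KIT was lower, few list genes differed. SOS1, an exchange factor that loads RAS with GTP, was the 1 of 43 genes at least 2 times higher, at 126 against 52.5 CPM, and 0 were lower. Of all 8176 genes compared, 8.56% were higher and 6.31% lower. The list's median was 0.09 and that of all genes 0.05, against −1.63 for KIT.

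From meiotic-like to oogenesis-like cells, where KIT was high again, 5 of 42 list genes were higher and 4 lower, beside 11.5% and 16% of all 8231 genes. The docking protein GAB2 went from 31.0 to 106 CPM and the kinase MAP2K1 from 29.2 to 96.6 CPM, while SOS1 went from 126 to 52.7 CPM. CBL, a ubiquitin ligase that marks activated KIT for removal from the surface, went from 37.6 to 7.95 CPM. The list's median was −0.23 and that of all genes −0.16. KIT differed by 2.03 on this scale, or 1.79 among barcodes ending in 2, where CBL differed by −1.01, GAB2 by 1.36 and MAP2K1 by 1.32.

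Granulosa-like cells differed from germ cell-like cells in 8 of 43 list genes, 4 higher and 4 lower, beside 10.8% higher and 15.2% lower of all 8739 genes. Higher were DUSP6, a phosphatase of ERK, at 65.3 against 13.03 CPM, PTPN11 at 65.7 against 23.6 CPM and the transcription factor MITF at 35.2 against 11.6 CPM. Lower were the PI3K subunit PIK3CB at 15.8 against 63.1 CPM, MTOR at 27.9 against 78.1 CPM and HRAS at 32.7 against 80.4 CPM. The list's median was 0.13 and that of all genes −0.13. Each of these shares lies near or below that of all genes, so nothing particular to the list was seen in them.

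**Figure D5:**
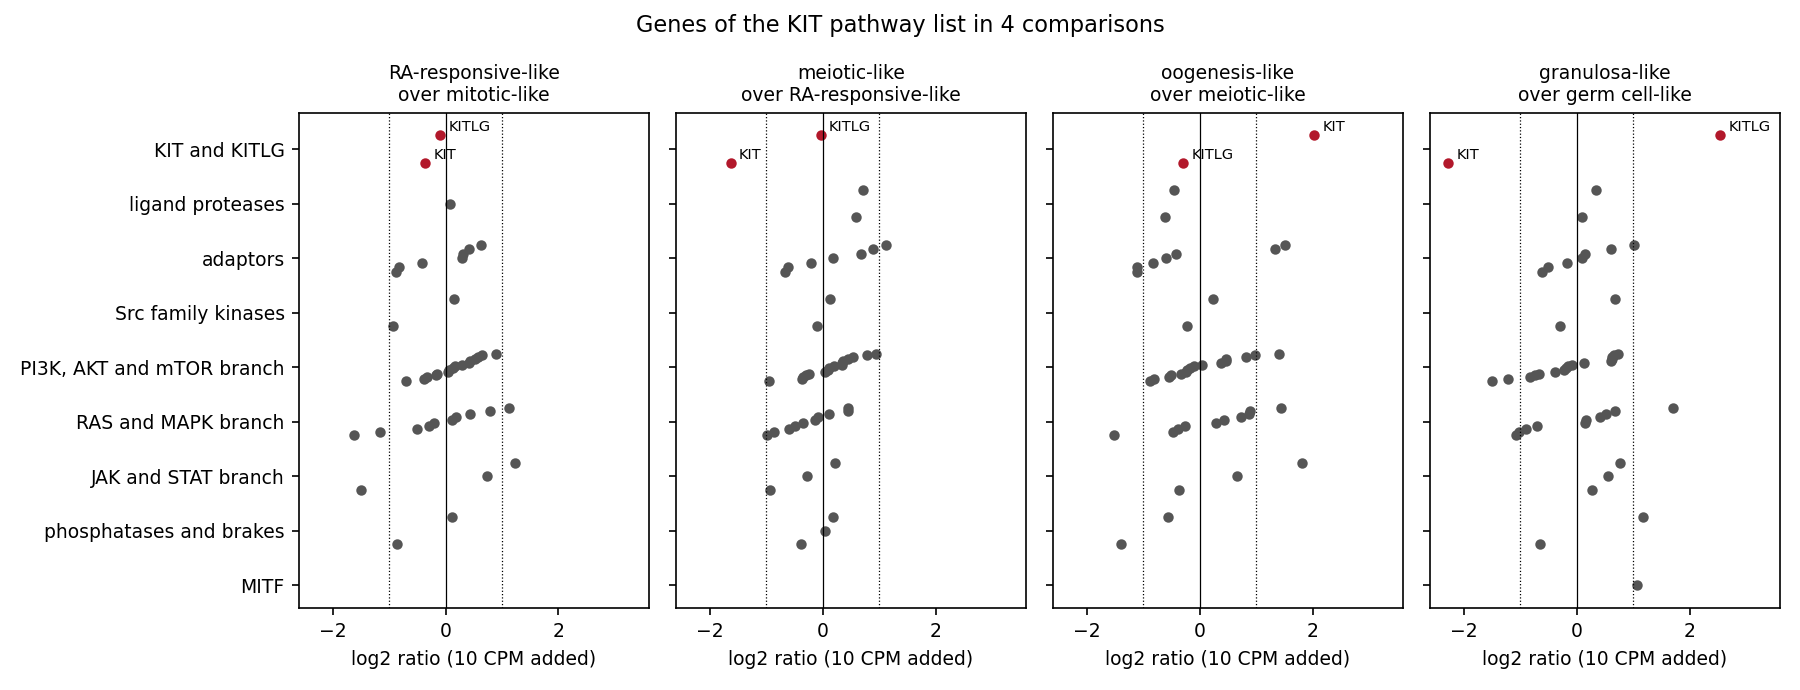
Log2 ratios, with 10 CPM added, of KIT, KITLG and the compared genes of the signaling list, grouped by role, in 4 comparisons. Dotted lines mark 2 times higher or lower. KIT lies at −1.63 for meiotic-like over RA-responsive-like cells and at 2.03 for the next step, while most list genes lie between the dotted lines.

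Core members of the pathway are given here by step, whatever their level. ADAM17, a protease known to release KITLG from the membrane, was at 7.27, 9.71, 19.6 and 11.6 CPM from the mitotic-like to the oogenesis-like step, and at 17.8 CPM in granulosa-like and 1.85 CPM in erythroid-like cells. GRB2, the adaptor that links the receptor to RAS, was at 94.3, 119.5, 70.9 and 35.5 CPM. The phosphatase PTPN11 was at 42.2, 18.8, 19.4 and 9.93 CPM, and at 3.69 CPM in erythroid-like cells. The PI3K catalytic subunit PIK3CA was at 27.6, 40.5, 48.2 and 44.2 CPM and the regulatory subunit PIK3R1 at 32.9, 22.9, 15.7 and 25.4 CPM. GRB2 and PTPN11 were lowest in oogenesis-like cells, where KIT was high.

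AKT1 was at 19.2, 35.4, 13.4 and 20.4 CPM over the same steps, lowest in meiotic-like cells as KIT was. FOXO3, a target of AKT that holds primordial follicles at rest, stood between 0.722 and 1.68 CPM in all 4 steps and at 1.33 CPM in granulosa-like cells, too low to compare. CBL was at 28.8 and 31.9 CPM in mitotic-like and RA-responsive-like cells. SPRED1, an inhibitor of RAS signaling, was at 2.62, 1.095, 10.3 and 1.81 CPM.

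Of the related class III receptors, CSF1R, the receptor of the macrophage growth factor CSF1 and of IL34, stood out in oocytes. Oogenesis-like cells had 346 CPM and meiotic-like cells 2.74 CPM, beside 268 CPM in macrophage-like cells. It was at 353 CPM in the PADI6 and 259.7 CPM in the ZP4 sub-cluster. The other 9 macrophage markers summed to 6.41 CPM in oogenesis-like cells, with 1 of them at 0, and to 5049 CPM in macrophage-like cells. Its ligand IL34 had 23.5 CPM (20.7–26.5) in the oogenesis-like step and 29.4 CPM (18.4–44.4) in pericyte-like cells. The other ligand, CSF1, had 1.81 CPM in that step, 56.0 CPM in stroma-like and 72.0 CPM in pericyte-like cells. PDGFRA, the receptor of platelet-derived growth factors, was highest in stroma-like cells at 73.9 CPM, PDGFRB in pericyte-like cells at 575 CPM, and the ligand PDGFB was at 109 CPM in endothelial-like and 21.5 CPM in mitotic-like cells. FLT3, the fifth receptor of the class, reached at most 5.18 CPM in a germ cell step and 13.8 CPM in macrophage-like cells.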

How the data were processed

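Single-cell RNA sequencing libraries (10x Genomics 3′ chemistry) were made from whole fetal ovaries, 1 per stage. The authors deposited UMI counts, not normalized, from Cell Ranger 3.0.2 on Macaca_fascicularis_5.0, filtered in Seurat to genes found in at least 3 cells. The sources name no step against doublets or free RNA.

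All 20967 cells were used. Counts were normalized, 2000 variable genes taken after leaving out 77 genes (KIT, KITLG and both signaling lists), exact principal components computed, and a graph of 20 neighbours on 18 components clustered at resolution 0.6 with Seurat 5.3.0 (R 4.3.3, Matrix 1.6.5). A second round split the germ cell-like cells, at the smallest resolution that gave 11 sub-clusters. A name needed 3 markers, each 1.5 times higher than in other cells and in 5% of cells. It was withheld where markers of another class led or, with no own marker leading, where another class had many. The members, marker lists and signaling lists were chosen with earlier results of these data known.

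Levels are summed UMIs as CPM with exact Poisson intervals. Ratios have exact conditional and shares exact binomial intervals, all at 95%. Shares were repeated after thinning each cell to 1000 UMIs, leaving out shallower cells. Cells are not replicates, so no test was made. Genes named beside KIT and KITLG are 11 signaling genes whatever their values, the 3 list genes with the largest ratio each way among those at least 2 times different, the 5 genes most like each member, and 9 genes known in germ or somatic cells of the ovary. Some genes that this rule names are not reported here. The class III receptors and ligands were a second list of 11 genes, and the values named from it were chosen after they were seen. Scrublet (scanpy 1.11.5) called 2 and 1 cells of the barcode endings, so an alternative left out the top 8% of scores (850 and 828 cells). Intervals were tested on counts simulated as Poisson draws. These hold no spread between cells or libraries, so that test could not show how the intervals behave under such spread. Thinning was checked on cells of the data. Python 3.11.15, numpy 2.4.6, scipy 1.17.1, pandas 2.3.3 and matplotlib 3.10.9 were used.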

Additional observations from a re-analysis of the deposited data

How the results depend on the processing

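No paired analysis was possible because each stage has 1 library. The 3 ratios between germ cell steps were recomputed under 9 alternatives, and the other 3 under 8 and the added ones. Leaving out the unnamed germ sub-clusters or the ND1 cluster and adding the RGS4 cluster to granulosa-like cells were alternatives chosen after seeing the data, as were all alternatives for the signaling list. The 3 ratios of KIT and the 2 of KITLG in granulosa-like cells had the same direction under each alternative run for them.

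The mean of single cells gave log2 2.67 for KIT in germ cell-like over granulosa-like cells. With KIT, KITLG and the list kept among the variable genes, KIT was 1.79 in RA-responsive-like and 2.22 in oogenesis-like over meiotic-like cells. The latter was 1.66 without cells above 10% mitochondrial UMIs.

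KITLG in granulosa-like over germ cell-like cells was 3.64 without cells above 3000 genes, 2.87 without cells above 10% mitochondrial UMIs, 3.22 without the highest doublet scores, 2.51 at resolution 1.0, 3.10 after thinning, 5.36 without unnamed germ sub-clusters and 2.97 without the ND1 cluster. Over stroma-like cells it was 3.98 with the mitochondrial limit, 3.86 without the highest doublet scores, 3.69 with 30 components, 3.19 for the mean of single cells, 3.19 after thinning and 3.69 without the ND1 cluster.

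KITLG in mitotic-like over RA-responsive-like cells, not distinct from 0 as reported, was −1.34 without cells above 3000 genes, 2.86 at resolution 1.0, −1.17 for the mean of single cells and −2.20 after thinning, and the cause was not tested.

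The signaling list had 8 genes past 2 times after thinning in place of 5 (RA-responsive-like over mitotic-like). In place of 1 (meiotic-like over RA-responsive-like) it had 4 without cells above 3000 genes, 3 with the mitochondrial limit, 2 for the mean of single cells and 4 after thinning. In place of 8 (granulosa-like over germ cell-like) it had 4 with the mitochondrial limit and 5 for the mean of single cells. Resolution 0.6 for germ cells was the resolution already in use. With 1 library per stage, the difference between fetuses is not covered by any interval.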
